A study of Mus musculus with 14 samples.

Results

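Collagens, other proteins of the extracellular matrix, enzymes that process them and receptors of fibroblasts and mural cells were examined in 14 thymic lymphomas of mice. Chosen with earlier results of these data known, the group was a list of 41 genes named by function. Of these, 40 had a probe set that mapped to that gene alone, and where a gene had several, the brightest on average was used. Fbn1, the main fibrillin of microfibrils, had none and was not analysed here. The 40 measured genes were set beside all 10254 genes measured the same way. Because of how the list was chosen, their shares against all genes are not independent evidence.

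All mice were homozygous for the R270H mutant of p53 (p53R270H/R270H), on a mixed C57BL/6-129/SvEvTac background. The animals differed at Hif1a, the gene for the subunit of HIF-1 that oxygen controls. There were 5 tumours of HIF1a+/+ mice, 5 of HIF1a+/- mice and 4 of HIF1aKI/+ mice, each on its own array and labelled as a separate biological replicate. The replicate numbers were 1 to 5, with 1, 3, 4 and 5 for HIF1aKI/+. What the KI allele carries is not given in the labels, nor are sex, age and batch. Tumours were taken once the mouse had trouble breathing, so all are late tumours of the thymus. Values are log2 expression units of whole tumour tissue, in which fewer cells of a type and less RNA per cell cannot be told apart.

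Much of the matrix is made by fibroblasts and mural cells. In whole tumour tissue the cells that gave a signal, lymphoma cells included, were not told apart. Fibril-forming collagens are secreted as procollagens, trimmed, assembled into fibres and crosslinked by lysyl oxidases, while small proteoglycans bound to the fibres set their width and spacing. Sheets of collagen IV, laminin and nidogen form the basement membranes of vessels and epithelium. In a thymus, this scaffold lies in the capsule, the septa and around vessels.

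The arrays had medians between 7.91 and 8.03, and correlations between arrays ran from 0.942 to 0.976. The values had a low mode of probe sets without signal, bounded at 4.41, and 28.5% of the genes had a mean below that boundary. T cell markers were high in all 14 tumours: the mean of 11 such genes lay between 11.62 and 12.67, and Thy1, a surface marker of T cells, lay between 14.01 and 14.52. Hif1a itself had a mean of 12.68 ± 0.26 (SD, n = 5) in the HIF1a+/+ tumours. In the HIF1a+/- tumours it was 12.55 ± 0.22 (SD, n = 5), a difference of -0.13 (SE 0.15, limma adjusted p = 0.857) with overlapping groups. The labels do not place this probe set against the part of the gene that the HIF1a+/- allele lacks. The 4 HIF1aKI/+ tumours, at 12.02 ± 0.22 (SD, n = 4), lay below every HIF1a+/+ tumour (difference -0.66, SE 0.16, limma adjusted p = 0.984).

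Of the 40 genes, 22 lay at or above 4.41 in all 14 tumours, 14 in some of them, and 4 (Col14a1, Lum, Mfap2 and Mfap4) in none. The means of 8 genes lay below it: Col14a1, Col18a1, Nid2, Lum, Eln, Mfap2, Mfap4 and Svep1. A difference between groups that both lie below the boundary was measured against background, and its size is uncertain.

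**Figure D1:**
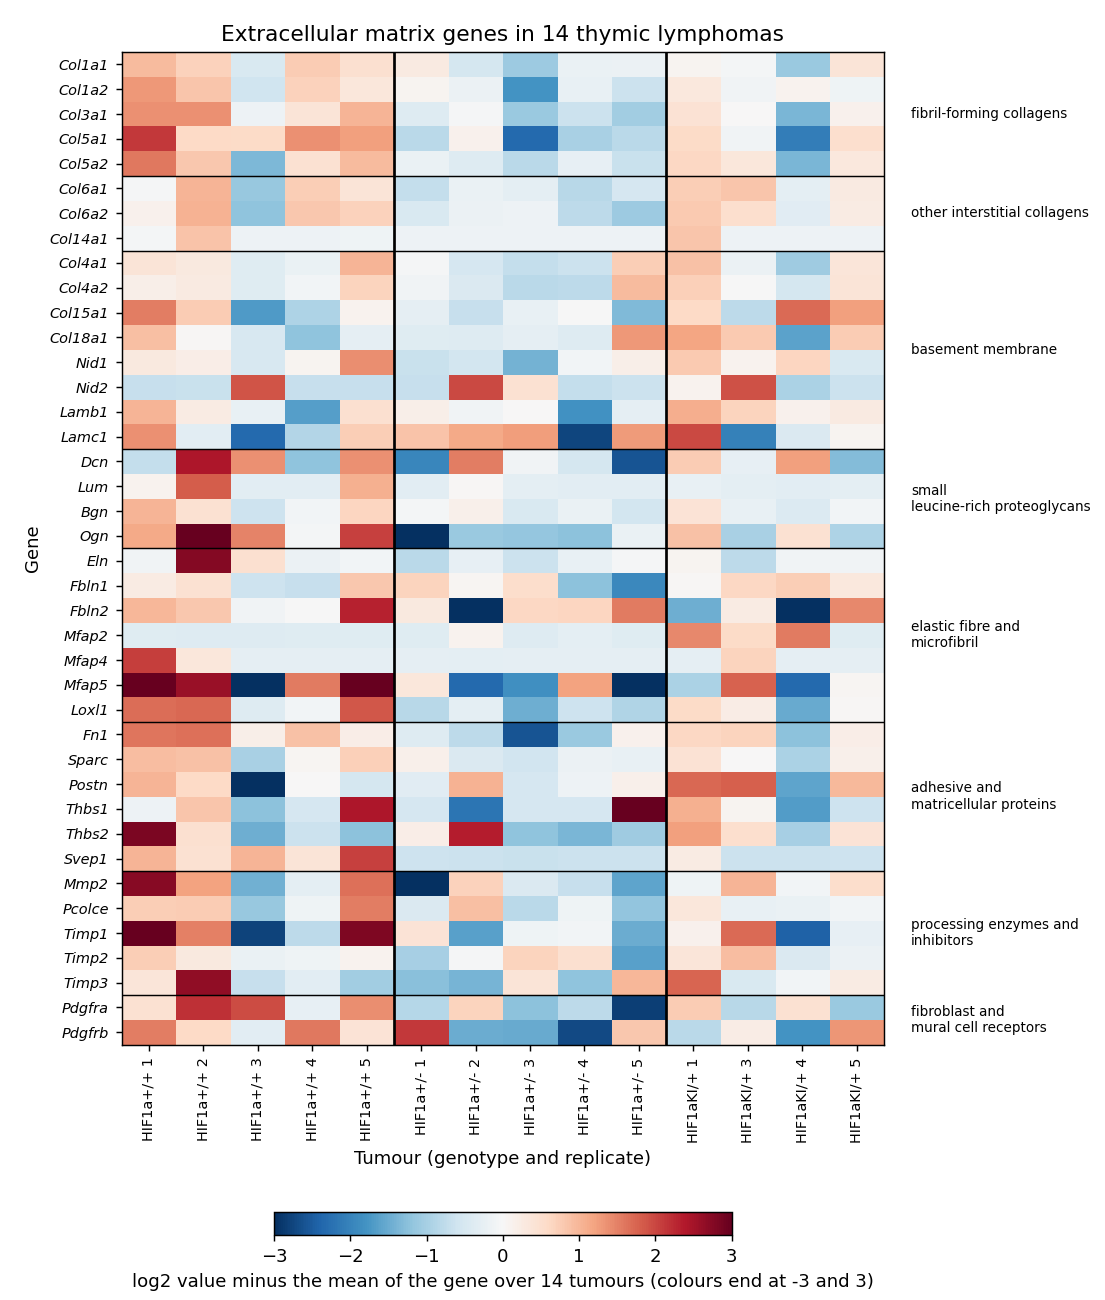
Heat map of 40 matrix genes (rows, ordered by role) in 14 tumours (columns, ordered by genotype and replicate). Colour gives the log2 value minus the mean of that gene over all 14 tumours, from -3 (blue) to 3 (red). Red cells gather in HIF1a+/+ tumours 1, 2 and 5, and pale blue cells in most HIF1a+/- tumours.

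The HIF1a+/- tumours gave lower values than the HIF1a+/+ tumours for most matrix genes, among them all 5 fibril-forming collagens, fibronectin, the crosslinking enzyme Loxl1 and the fibroblast receptor Pdgfra. None of the differences passed the test. With limma and Benjamini-Hochberg adjustment over all genes at 0.05, 0 of 40 matrix genes were called, while 0.0195% of all genes (2 of 10254) were. The smallest adjusted p among the matrix genes was 0.207, for Svep1. At an unadjusted limma p under 0.05, 10 of 40 genes were lower (25%), against 3.64% of all genes, and 0 were higher, against 4.3%. In both directions together 7.94% of all genes reached it. These 10 were Col1a1, Col1a2, Col3a1, Col5a1, Ogn, Loxl1, Fn1, Svep1, Mmp2 and Pdgfra. In all, 35 of 40 were lower (87.5%), against 53.8% of all genes, and 5 were higher (12.5%), against 46.2%. The median log2 difference was -0.71, against -0.0038 over all genes. Among the 32 genes with a mean at or above the boundary, 30 were lower, with a median of -0.82. For 4 genes (Col5a1, Ogn, Fn1 and Svep1) the highest HIF1a+/- value was below the lowest HIF1a+/+ value, 10% of the list against 0.741% of all genes lower (1.47% in either direction). The count of 10 at an unadjusted p under 0.05 rose to 20 without HIF1a+/+ tumour 3, where 6.97% of all genes reached it. Without any other single tumour it lay between 8 and 11. With a weight for each array the count was 8, against 10.2% of all genes in both directions. In that fit 32 genes were lower, against 55.2% of all genes, with a median of -0.49.

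Upstream sequence is shown for the genes of these 10 that had a window in the RefSeq promoter table and held 1 of the letter motifs searched, so that the start regions of genes with lower values can be read side by side. Each run is the 250 bases before the annotated start on build GRCm38.p6, read 5′ to 3′ on the strand of the gene. Capitals mark the motifs ACGTG (the core of the element that HIF-1 binds), GCGTG (its variant core), CCAAT and TATAAA on either strand, where neighbouring matches may overlap.
Col1a2 (chr6:4505368-4505617, plus strand): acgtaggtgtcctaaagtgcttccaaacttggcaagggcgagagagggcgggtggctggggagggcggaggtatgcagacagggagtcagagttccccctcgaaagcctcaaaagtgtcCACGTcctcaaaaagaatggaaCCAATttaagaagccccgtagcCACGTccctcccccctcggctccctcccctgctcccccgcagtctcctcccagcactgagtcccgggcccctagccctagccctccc
Col3a1 (chr1:45311288-45311537, plus strand): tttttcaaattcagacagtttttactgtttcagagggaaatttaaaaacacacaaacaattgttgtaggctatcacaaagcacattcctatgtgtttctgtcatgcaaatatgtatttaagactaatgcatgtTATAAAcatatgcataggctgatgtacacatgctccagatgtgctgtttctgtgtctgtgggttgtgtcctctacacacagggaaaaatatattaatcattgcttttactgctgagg
Col5a1 (chr2:27886175-27886424, plus strand): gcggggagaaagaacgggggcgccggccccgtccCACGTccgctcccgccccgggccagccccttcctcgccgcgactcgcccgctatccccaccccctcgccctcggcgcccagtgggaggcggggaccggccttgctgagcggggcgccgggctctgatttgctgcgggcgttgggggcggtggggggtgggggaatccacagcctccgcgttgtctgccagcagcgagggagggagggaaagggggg
Ogn (chr13:49607765-49608014, plus strand): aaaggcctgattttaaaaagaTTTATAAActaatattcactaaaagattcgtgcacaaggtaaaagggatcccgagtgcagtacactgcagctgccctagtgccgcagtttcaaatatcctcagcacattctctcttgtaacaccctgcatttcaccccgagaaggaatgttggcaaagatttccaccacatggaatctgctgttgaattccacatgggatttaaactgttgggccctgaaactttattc
Svep1 (chr4:58206597-58206846, minus strand): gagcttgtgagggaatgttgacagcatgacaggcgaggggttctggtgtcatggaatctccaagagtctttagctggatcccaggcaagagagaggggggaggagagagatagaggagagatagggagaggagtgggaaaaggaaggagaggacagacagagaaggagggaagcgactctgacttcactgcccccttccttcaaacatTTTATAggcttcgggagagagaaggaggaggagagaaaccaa
CACGT, the reverse complement of ACGTG, stands in 2 places in Col1a2 and in 1 place in Col5a1, and Col1a2 also holds CCAAT, while Col3a1, Ogn and Svep1 hold TATAAA letters or their reverse complement and no HIF core. A window was found for 25 of the 40 genes. ACGTG occurred in 4 of these 25 (16%), against 16.6% of 27025 genes with a window, and GCGTG in 10 of 25 (40%), against 28.2%. Either core occurred in 13 of 25 (52%), against 38.6%. CCAAT was found in 9 of 25 (36%) against 34.5%, and TATAAA in 4 of 25 (16%) against 13%. The upstream windows of the matrix genes held a median of 58.8% G and C, against 52% over all windows, and the counts of G- and C-rich letters were not corrected for it. Pdgfra, the other gene of the 10 with a window, held none of these letters. A match of letters is not evidence of binding.

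Collagens I, III and V assemble into the striated fibres of connective tissue. All 5 of their measured chains were lower in HIF1a+/- than in HIF1a+/+ tumours, with a median difference of -1.06, and 4 of 5 reached an unadjusted p under 0.05. Col1a1, the chain present as 2 copies in each collagen I molecule, measured 13.41, 13.15, 11.99, 13.21 and 12.93 in the HIF1a+/+ tumours, 12.71, 11.93, 11.36, 12.26 and 12.27 in the HIF1a+/- tumours and 12.54, 12.40, 11.33 and 12.84 in the HIF1aKI/+ tumours. The groups overlapped through HIF1a+/+ tumour 3, whose value was the only one under 12.93 in its group. The difference was -0.83 (SE 0.35, limma adjusted p = 0.598), 1.78-fold. A further probe set of Col1a1 with a mean of 10.64 gave -1.74 (SE 0.55). Col1a2, the partner chain, gave a difference of -1.06 (SE 0.38, limma adjusted p = 0.54), from 12.13 ± 0.70 (SD, n = 5) to 11.07 ± 0.74 (SD, n = 5).

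Col3a1, the collagen of pliable and healing tissue, measured 12.62, 12.61, 11.09, 11.63 and 12.27 in the HIF1a+/+ tumours, 10.85, 11.21, 10.13, 10.60 and 10.21 in the HIF1a+/- tumours and 11.67, 11.26, 9.88 and 11.37 in the HIF1aKI/+ tumours. Only HIF1a+/- tumour 2, at 11.21, lay above the lowest HIF1a+/+ tumour. The difference from HIF1a+/+ was -1.44 (SE 0.39, limma adjusted p = 0.474), or 2.72-fold, in HIF1a+/- tumours. In HIF1aKI/+ tumours it was 2-fold lower (95% interval of the log2 difference -1.91 to -0.09, limma adjusted p = 0.984). A further probe set of Col3a1 gave -2.38 (SE 0.50, limma adjusted p = 0.402 over all probe sets) in HIF1a+/- tumours.

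Col5a1, a chain of the collagen that starts and limits fibril growth, measured 9.48, 7.96, 7.92, 8.72 and 8.59 in the HIF1a+/+ tumours, 6.55, 7.48, 5.01, 6.37 and 6.55 in the HIF1a+/- tumours and 7.92, 7.25, 5.27 and 7.86 in the HIF1aKI/+ tumours. The HIF1a+/- values all lay under the HIF1a+/+ values, with a gap between 7.48 and 7.92. The HIF1aKI/+ values also lay below, but the highest of them and the lowest HIF1a+/+ value both read 7.92 when rounded. The difference was -2.14 (SE 0.57, limma adjusted p = 0.46), or 4.41-fold, in HIF1a+/- and -1.46 (SE 0.60, limma adjusted p = 0.984), or 2.76-fold, in HIF1aKI/+ tumours. A further probe set of Col5a1 gave -1.79 and -1.31. Col5a2, its partner, gave -0.95 (SE 0.51) and -0.51 (SE 0.54), with HIF1aKI/+ tumour 4 at 8.98 and HIF1a+/+ tumour 3 at 9.01 as its lowest values.

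Collagen VI forms beaded filaments around cells, and collagen XIV sits on the surface of fibrils. Col6a1 measured 10.76, 11.82, 9.65, 11.54 and 11.19 in the HIF1a+/+ tumours, 10.08, 10.60, 10.50, 9.97 and 10.30 in the HIF1a+/- tumours and 11.53, 11.62, 10.51 and 11.06 in the HIF1aKI/+ tumours. The HIF1a+/- tumours lay in a narrow range, and 3 of 4 HIF1aKI/+ tumours lay above all of them. The difference between HIF1a+/- and HIF1aKI/+ was -0.89 (SE 0.39, limma adjusted p = 1), that between HIF1a+/- and HIF1a+/+ was -0.70 (SE 0.37, limma adjusted p = 0.655), and HIF1aKI/+ differed from HIF1a+/+ by 0.19 (SE 0.39). Col6a2 gave almost the same pattern, with -0.83 (SE 0.42) against HIF1aKI/+ and -0.83 (SE 0.40) against HIF1a+/+. Col14a1 was at background in every tumour, with 3.05 in HIF1a+/+ tumour 2 as its highest value.

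Of the 8 basement membrane genes, 5 were lower in HIF1a+/- than in HIF1a+/+ tumours, with a median of -0.37, and 0 reached an unadjusted p under 0.05. In HIF1aKI/+ tumours 6 of 8 were higher, against 47.7% of all genes, with a median of 0.22, and 0 reached that p. These 6 include Col4a2 at 0.00, and Nid2 and Col18a1, whose means lay below the boundary. Col4a2, a chain of the pair of vascular basement membrane, measured 11.05, 11.16, 10.51, 10.81 and 11.54 in the HIF1a+/+ tumours, 10.77, 10.44, 10.08, 10.09 and 11.84 in the HIF1a+/- tumours and 11.59, 10.87, 10.35 and 11.27 in the HIF1aKI/+ tumours. The groups overlapped throughout, and the difference was -0.37 (SE 0.35, limma adjusted p = 0.806) in HIF1a+/- and 0.00 (SE 0.37) in HIF1aKI/+ tumours. Col4a1 gave -0.46 (SE 0.40) and -0.23 (SE 0.43). Nid1, the nidogen that links laminin to collagen IV, lay between 7.86 and 9.44 in HIF1a+/-, between 8.80 and 10.67 in HIF1a+/+ and between 8.81 and 10.05 in HIF1aKI/+ tumours. Its difference was -0.82 (SE 0.38, limma adjusted p = 0.626) against HIF1a+/+ and -0.78 (SE 0.41, limma adjusted p = 1) against HIF1aKI/+. Col15a1, a collagen of the zone between basement membrane and fibres, gave -0.46 (SE 0.62) in HIF1a+/- and 0.73 (SE 0.66) in HIF1aKI/+ tumours, with its highest value, 9.96, in HIF1aKI/+ tumour 4. Between HIF1a+/- and HIF1aKI/+ it differed by -1.19 (SE 0.66, limma adjusted p = 1).

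The laminin chains Lamb1 and Lamc1 form the core of many laminins. Lamb1 gave -0.37 (SE 0.50) in HIF1a+/- and 0.57 (SE 0.53) in HIF1aKI/+ tumours, and Lamc1 gave 0.64 (SE 0.99) and 0.18 (SE 1.05). Both chains had their lowest value in HIF1a+/- tumour 4, at 4.76 and 3.87. Nid2 was above the boundary in 3 tumours alone, 1 of each genotype: HIF1a+/- tumour 2 (5.24), HIF1aKI/+ tumour 3 (5.17) and HIF1a+/+ tumour 3 (5.14). Col18a1, the source of endostatin, was above it in 6 tumours, with 5.69 in HIF1a+/- tumour 5 as the highest.

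Small leucine-rich proteoglycans bind collagen fibrils through their protein core. All 4 were lower in HIF1a+/- than in HIF1a+/+ tumours, with a median of -1.05. Ogn (osteoglycin) measured 7.32, 9.48, 7.67, 6.11 and 8.23 in the HIF1a+/+ tumours, 2.54, 5.06, 5.01, 4.94 and 5.97 in the HIF1a+/- tumours and 7.05, 5.19, 6.62 and 5.25 in the HIF1aKI/+ tumours. The HIF1a+/- values ended at 5.97, under the lowest HIF1a+/+ value of 6.11, and HIF1a+/- tumour 1 was below the boundary. Its difference was the largest of the 40 genes in this comparison, at -3.06 (SE 0.72, limma adjusted p = 0.408), or 8.32-fold. Leaving out any single tumour gave between -3.47 and -2.52. In HIF1aKI/+ tumours it was -1.73 (SE 0.77, limma adjusted p = 0.984), or 3.32-fold.

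Bgn (biglycan) measured 12.17, 11.59, 10.51, 11.06 and 11.79 in the HIF1a+/+ tumours, 11.09, 11.29, 10.69, 10.94 and 10.58 in the HIF1a+/- tumours and 11.54, 10.92, 10.73 and 11.06 in the HIF1aKI/+ tumours. Its groups overlapped, and the difference was -0.51 (SE 0.28, limma adjusted p = 0.677) in HIF1a+/- and -0.36 (SE 0.30, limma adjusted p = 0.984) in HIF1aKI/+ tumours. Dcn (decorin) varied widely, from 5.95 in HIF1a+/- tumour 5 to 10.96 in HIF1a+/+ tumour 2. Its difference in HIF1a+/- tumours was -1.38 (SE 0.90, limma adjusted p = 0.724), and it turned to 0.23 (SE 1.07) without HIF1a+/+ tumours 2, 3 and 5. Lum (lumican) was below the boundary everywhere, with 4.20 in HIF1a+/+ tumour 2 as its highest value.

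Of 7 genes of elastic fibres and microfibrils, 6 were lower in HIF1a+/- than in HIF1a+/+ tumours (median -0.91) and 5 in HIF1aKI/+ tumours (median -0.81). Loxl1, a lysyl oxidase that crosslinks elastin, measured 8.01, 8.06, 5.95, 6.25 and 8.20 in the HIF1a+/+ tumours, 5.50, 6.03, 4.87, 5.70 and 5.44 in the HIF1a+/- tumours and 6.90, 6.55, 4.81 and 6.37 in the HIF1aKI/+ tumours. HIF1a+/+ tumours 1, 2 and 5 stood near 8, above every other tumour, while HIF1a+/+ tumours 3 and 4 lay among the other genotypes. The difference was -1.79 (SE 0.53, limma adjusted p = 0.474), or 3.45-fold, in HIF1a+/- and -1.14 (SE 0.56, limma adjusted p = 0.984), or 2.2-fold, in HIF1aKI/+ tumours. Fbln1 (fibulin 1) measured 10.06, 10.29, 9.21, 9.12 and 10.62 in the HIF1a+/+ tumours, 10.50, 9.87, 10.34, 8.59 and 7.89 in the HIF1a+/- tumours and 9.86, 10.45, 10.56 and 10.14 in the HIF1aKI/+ tumours. The lowest 2 values were those of HIF1a+/- tumours 4 and 5, and the differences were -0.42 (SE 0.50, limma adjusted p = 0.86) and 0.39 (SE 0.53, limma adjusted p = 1). Mfap5, a microfibril protein, had the widest range of the 40 genes, 7.02 log2 units, from 2.85 in HIF1a+/- tumour 5 to 9.87 in HIF1a+/+ tumour 5. Its difference of -2.81 in HIF1a+/- tumours had an SE of 1.35. Fbln2 dropped to background in HIF1a+/- tumour 2 (2.57) and HIF1aKI/+ tumour 4 (2.58) and lay at 4.79 or above elsewhere. Eln, the elastin gene, was above the boundary in HIF1a+/+ tumour 2 alone, at 5.68, and Mfap4 nowhere.

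Mfap2, another microfibril protein, had its highest values in HIF1aKI/+ tumours. It measured 2.08, 2.07, 2.07, 2.08 and 2.09 in the HIF1a+/+ tumours, 2.08, 2.56, 2.07, 2.16 and 2.08 in the HIF1a+/- tumours and 3.89, 3.02, 4.02 and 2.08 in the HIF1aKI/+ tumours. The HIF1a+/+ tumours all read the background value, and 3 of 4 HIF1aKI/+ tumours lay above it, yet every tumour was below 4.41. The difference between HIF1aKI/+ and HIF1a+/+ was 1.17 (SE 0.32, limma adjusted p = 0.984). Without HIF1aKI/+ tumour 5 it was 1.56 (SE 0.20, limma adjusted p = 0.0437), and its adjusted p lay between 0.738 and 1 in the other alternatives. HIF1a+/- differed from HIF1aKI/+ by -1.06 (SE 0.32, limma adjusted p = 1).

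**Figure D2:**
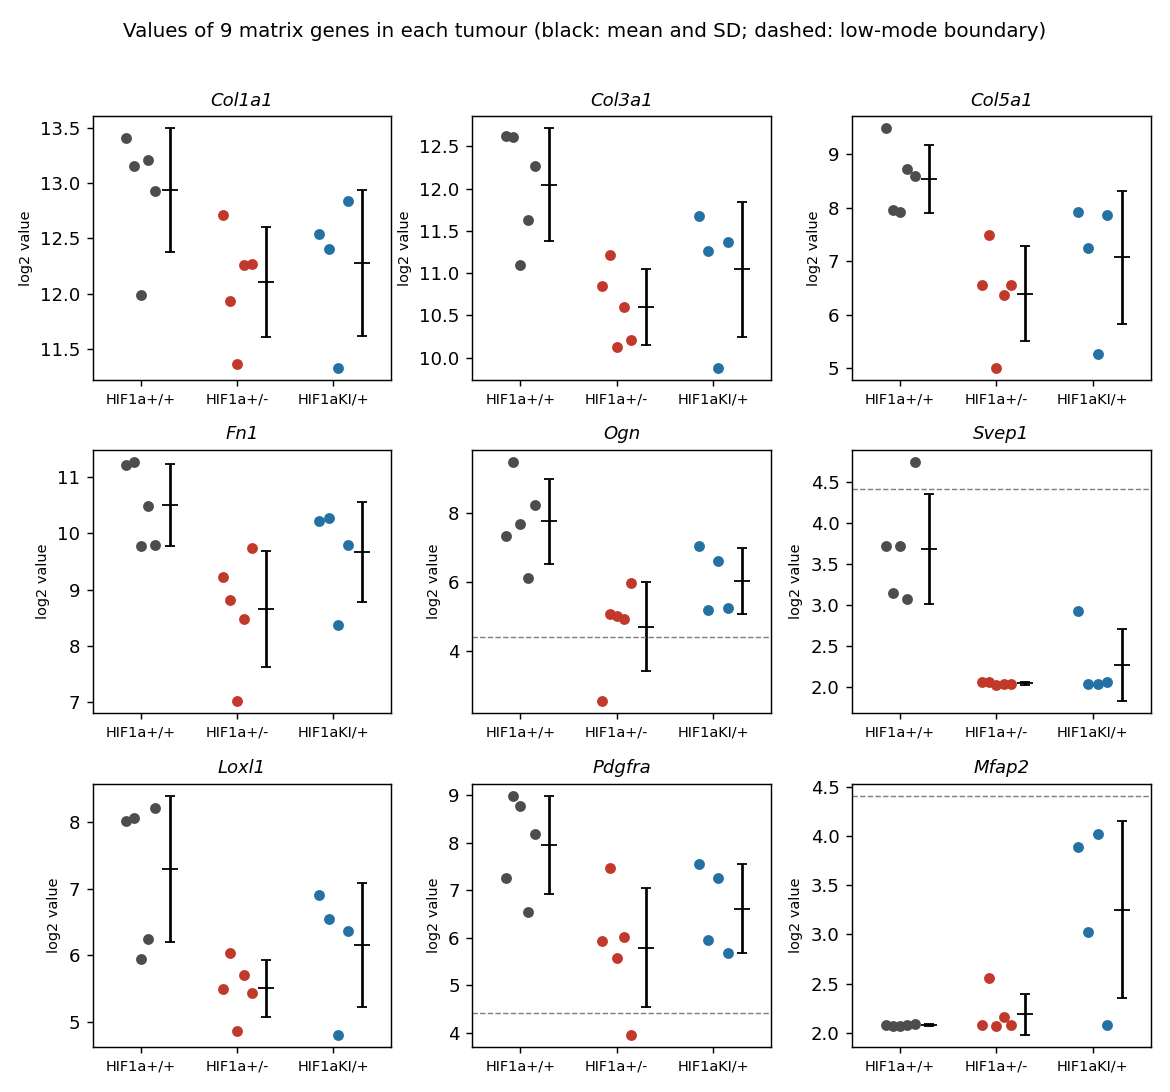
Log2 values of 9 matrix genes in each tumour, by genotype. Points are tumours, black bars give the mean and SD, and the dashed line marks the boundary of the low mode at 4.41. In the Col5a1, Ogn, Fn1 and Svep1 panels every HIF1a+/- tumour lies below every HIF1a+/+ tumour, while Svep1 and Mfap2 lie at or near background.

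Of 6 genes for adhesive and matricellular proteins, 5 were lower in HIF1a+/- tumours (median -0.45) and 4 in HIF1aKI/+ tumours (median -0.49). Fn1 encodes fibronectin, on which cells pull and collagen fibres are laid. It measured 11.20, 11.26, 9.77, 10.48 and 9.79 in the HIF1a+/+ tumours, 9.22, 8.82, 7.02, 8.48 and 9.74 in the HIF1a+/- tumours and 10.22, 10.26, 8.37 and 9.79 in the HIF1aKI/+ tumours. The highest HIF1a+/- value, 9.74, lay just under the lowest HIF1a+/+ value, 9.77. The difference was -1.85 (SE 0.54, limma adjusted p = 0.474), or 3.6-fold, in HIF1a+/- and -0.84 (SE 0.58, limma adjusted p = 0.984), or 1.79-fold, in HIF1aKI/+ tumours. Svep1, a large adhesion protein that binds integrin alpha 9, measured 3.72, 3.15, 3.72, 3.07 and 4.74 in the HIF1a+/+ tumours, 2.07, 2.06, 2.03, 2.04 and 2.04 in the HIF1a+/- tumours and 2.93, 2.04, 2.04 and 2.07 in the HIF1aKI/+ tumours. All 5 HIF1a+/- tumours and 3 of 4 HIF1aKI/+ tumours read the background value, and only HIF1a+/+ tumour 5 exceeded the boundary. The difference was -1.63 (SE 0.28, limma adjusted p = 0.207) in HIF1a+/- and -1.41 (SE 0.30, limma adjusted p = 0.984) in HIF1aKI/+ tumours, and both sizes rest on values near background.

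Sparc, which binds secreted collagen, measured 12.73, 12.69, 10.84, 11.88 and 12.52 in the HIF1a+/+ tumours, 11.97, 11.37, 11.24, 11.63 and 11.58 in the HIF1a+/- tumours and 12.25, 11.83, 10.85 and 11.97 in the HIF1aKI/+ tumours. HIF1a+/+ tumours 1, 2 and 5 were above all others and HIF1a+/+ tumour 3 was the lowest of all 14. The difference was -0.57 (SE 0.37, limma adjusted p = 0.719) in HIF1a+/- and -0.41 (SE 0.39, limma adjusted p = 0.984) in HIF1aKI/+ tumours. Postn (periostin) was higher in both altered genotypes by its group mean, with 0.67 (SE 0.95) and 1.37 (SE 1.01). HIF1a+/+ tumour 3 read 3.90, against 7.63 to 9.16 in the other HIF1a+/+ tumours. Without that tumour the HIF1a+/- difference turned to -0.23 (SE 0.66) and the HIF1aKI/+ difference was 0.46 (SE 0.69). Thbs1 and Thbs2, which encode thrombospondins, gave differences no larger than 0.56 in size against HIF1a+/+, with SEs of at least 0.92.

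All 5 genes for processing enzymes and inhibitors were lower in HIF1a+/- tumours (median -0.68), and 3 in HIF1aKI/+ tumours (median -0.39). Mmp2, a gelatinase that cuts denatured collagen and collagen IV, measured 9.94, 8.43, 5.78, 6.93 and 8.87 in the HIF1a+/+ tumours, 4.03, 7.91, 6.79, 6.52 and 5.63 in the HIF1a+/- tumours and 7.10, 8.24, 7.13 and 7.75 in the HIF1aKI/+ tumours. The groups overlapped and HIF1a+/- tumour 1 was below the boundary. Its difference was -1.81 (SE 0.83) in HIF1a+/- and -0.43 (SE 0.88) in HIF1aKI/+ tumours. Timp2, an inhibitor that also takes part in the activation of pro-MMP2, measured 13.01, 12.56, 12.07, 12.13 and 12.37 in the HIF1a+/+ tumours, 11.26, 12.23, 12.94, 12.75 and 10.64 in the HIF1a+/- tumours and 12.63, 13.18, 11.84 and 12.09 in the HIF1aKI/+ tumours. No group stood apart, with -0.46 (SE 0.43, limma adjusted p = 0.805) and 0.01 (SE 0.46, limma adjusted p = 1). The further probe sets of Timp2 with means of 8.59 and 10.64 gave -1.45 (SE 0.40) and -0.93 (SE 0.28) in HIF1a+/- tumours, larger than the probe set used. Timp1 ranged from 4.49 in HIF1a+/+ tumour 3 to 10.26 in HIF1a+/+ tumour 1, and gave -1.33 (SE 1.12) and -0.96 (SE 1.19). Timp3 gave -0.68 (SE 0.75) and 0.18 (SE 0.79). Pcolce, which speeds the trimming of procollagen, gave -0.68 (SE 0.48) and -0.39 (SE 0.51).

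Both receptors of fibroblasts and mural cells were lower in each altered genotype. Pdgfra, the platelet-derived growth factor receptor that marks fibroblasts, measured 7.25, 8.99, 8.76, 6.54 and 8.19 in the HIF1a+/+ tumours, 5.94, 7.47, 5.57, 6.01 and 3.96 in the HIF1a+/- tumours and 7.56, 5.96, 7.25 and 5.68 in the HIF1aKI/+ tumours. HIF1a+/- tumour 2, at 7.47, and HIF1aKI/+ tumours 1 and 4 reached the HIF1a+/+ range. The difference was -2.16 (SE 0.67, limma adjusted p = 0.484), or 4.46-fold, in HIF1a+/- and -1.33 (SE 0.71, limma adjusted p = 0.984), or 2.52-fold, in HIF1aKI/+ tumours. Pdgfrb, its relative on pericytes and smooth muscle, measured 9.46, 8.54, 7.62, 9.52 and 8.35 in the HIF1a+/+ tumours, 10.06, 6.44, 6.41, 5.23 and 8.75 in the HIF1a+/- tumours and 7.12, 8.15, 6.15 and 9.25 in the HIF1aKI/+ tumours. The HIF1a+/- tumours held both the highest and the lowest value of all 14, and the difference was -1.32 (SE 0.89, limma adjusted p = 0.735), with -1.03 (SE 0.95, limma adjusted p = 0.984) in HIF1aKI/+ tumours.

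In HIF1aKI/+ tumours all 5 fibril-forming collagens (median -0.66) and all 4 small proteoglycans (median -0.65) read lower than in HIF1a+/+ tumours, while both collagen VI chains, Col15a1 and both laminin chains read 0.01 to 0.73 higher. With limma 0 of 40 genes were called, as were 0% of all genes. At an unadjusted p under 0.05, 4 of 40 were lower (10%; Col3a1, Col5a1, Ogn and Svep1), against 1.63% of all genes, and 1 was higher (2.5%; Mfap2), against 2.72% (4.35% in both directions). In total 25 were lower (62.5%), against 52.3% of all genes, and 15 were higher (37.5%), against 47.7%, with a median difference of -0.40 against -0.0024. Groups did not overlap for 2 genes, both lower (5%; Col5a1 and Svep1), against 0.878% of all genes lower (1.76% in either direction). The count of 5 genes at an unadjusted p under 0.05 was 2 without HIF1a+/+ tumour 1, 3 without tumour 2, 11 without tumour 3 and 2 without tumour 5. The median was -0.22 without HIF1a+/+ tumour 1, -0.66 without tumour 3, -0.24 without tumour 5 and -0.19 without HIF1aKI/+ tumour 4. With a weight for each array it was -0.02. Both comparisons with HIF1a+/+ use the same 5 control tumours, so their likeness is not separate evidence.

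**Figure D3:**
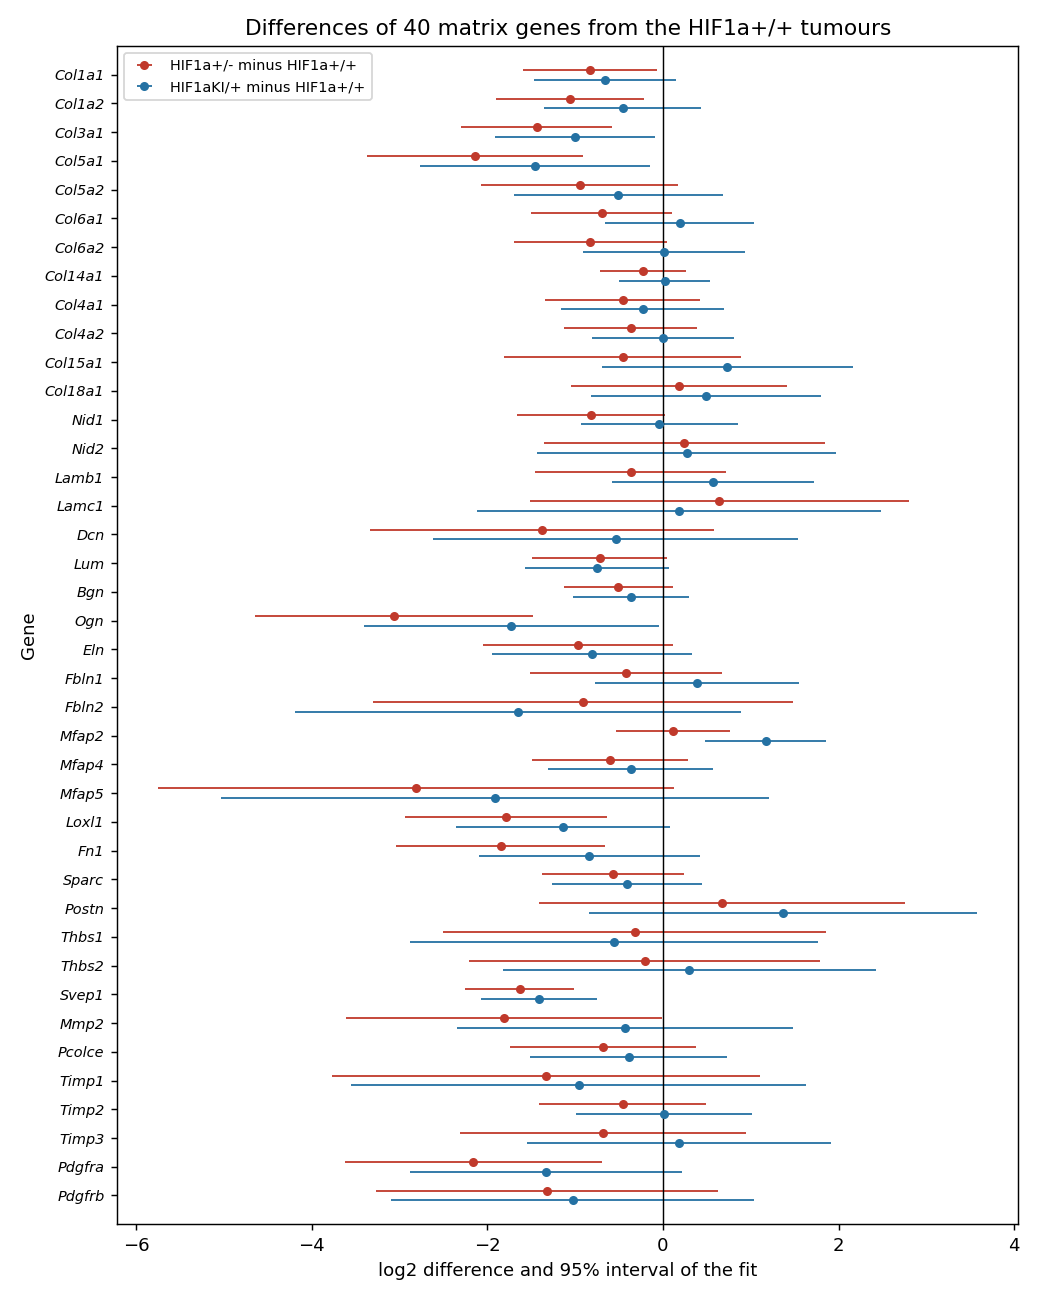
Log2 difference from the HIF1a+/+ tumours for 40 matrix genes, in HIF1a+/- (red) and HIF1aKI/+ (blue) tumours. Points are differences of the limma fit and bars their 95% intervals, not adjusted for the number of genes. For 35 of 40 genes the red point lies left of 0, and most intervals include 0.

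Set against each other, HIF1a+/- tumours read lower than HIF1aKI/+ tumours for 36 of 40 genes (90%), against 53.1% of all genes, and higher for 4 (10%), against 46.9%, with a median of -0.46 against -0.0012. With limma 0 were called, as were 0% of all genes, and 2 were lower at an unadjusted p under 0.05 (5%; Mfap2 and Col6a1), against 1.65% of all genes (3.06% in both directions). At that p 0 were higher, against 1.41%. Groups overlapped for every matrix gene, while 0.439% of all genes were lower without overlap (0.673% in either direction). The count of 2 became 6 without HIF1aKI/+ tumour 4, and 1 without HIF1aKI/+ tumour 1, HIF1a+/- tumour 1, HIF1a+/- tumour 4 or HIF1a+/+ tumour 1. Over the fits without 1 tumour the median ran from -0.69, without HIF1aKI/+ tumour 4, to -0.33, without HIF1a+/- tumour 3.

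Tumours of 1 genotype differed widely in their matrix genes. HIF1a+/+ tumours 1, 2 and 5 were among the highest 3 tumours for 23, 21 and 20 of the 40 genes, and together held 64 of 120 such places. HIF1a+/+ tumour 3 was among the lowest 3 for 17 genes and the lowest of all for 8. HIF1a+/- tumour 3 was among the lowest 3 for 21 genes and HIF1aKI/+ tumour 4 for 19. HIF1aKI/+ tumour 1 was among the highest 3 for 14 genes, more than any tumour outside HIF1a+/+. The mean of the 5 fibril-forming collagens was 12.08, 11.46, 10.21, 11.33 and 11.41 in HIF1a+/+, 10.39, 10.41, 9.17, 10.15 and 9.94 in HIF1a+/- and 11.01, 10.62, 9.44 and 10.85 in HIF1aKI/+ tumours. HIF1a+/+ tumour 3 was thus the only 1 of its group inside the HIF1a+/- range.

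Chains of the same collagen varied together across tumours, and so did Col1a1 and Col3a1, chains of different collagens. The paired nidogens, fibulins and receptors did not do so over all 14 tumours. Matrix genes without such a relation were not paired, so the values do not show that this is particular to collagen chains. Of 10 pairs compared over 14 tumours, 6 passed a permutation test of Pearson's r after Benjamini-Hochberg adjustment, and 5 passed it with Spearman's rho. Col6a1 and Col6a2 had r = 0.95 and rho = 0.95, and Col4a1 and Col4a2 had r = 0.94 and rho = 0.94. Their permutation p of 1e-05 is the smallest that 100000 resamples can give, with an adjusted p of 5e-05. Col1a1 and Col3a1 gave r = 0.84 and rho = 0.85 (adjusted permutation p = 0.000533 and 0.0007), and Col1a1 and Col1a2 gave r = 0.78 and rho = 0.76 (0.0018 and 0.00652). Col5a1 and Col5a2 gave r = 0.76 and rho = 0.75 (0.00368 and 0.00652). Without the 2 tumours farthest from the median of the first gene, r was 0.92 for collagen VI, 0.93 for collagen IV, 0.74 for Col1a1 with Col3a1, 0.88 for collagen I and 0.66 for collagen V. After genotype means were removed, r was 0.94, 0.95, 0.75, 0.69 and 0.70 in the same order. All 14 points share the normalization of 1 table.

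Dcn and Lum gave r = 0.59 (adjusted permutation p = 0.0276) but rho = 0.57 (adjusted permutation p = 0.059). Without HIF1a+/+ tumour 2 and HIF1a+/- tumour 5 r was 0.39, so the relation rests on those tumours, and Lum is at background. Lamb1 and Lamc1 gave r = 0.55 and rho = 0.45 (adjusted permutation p = 0.0574 and 0.16). Nid1 and Nid2 gave r = -0.36 and rho = -0.36, Pdgfra and Pdgfrb r = -0.10 and rho = -0.14, and Fbln1 and Fbln2 r = -0.16 and rho = 0.05, with adjusted permutation p between 0.261 and 0.878. Nid2 has a mean of 3.25, below the boundary, so its pair compares Nid1 mostly with background. After genotype means were removed, r was -0.57 for the receptors, 0.69 for the laminin chains and 0.54 for Dcn with Lum. It was -0.40 for the nidogens and -0.12 for the fibulins. These r were not tested.

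**Figure D4:**
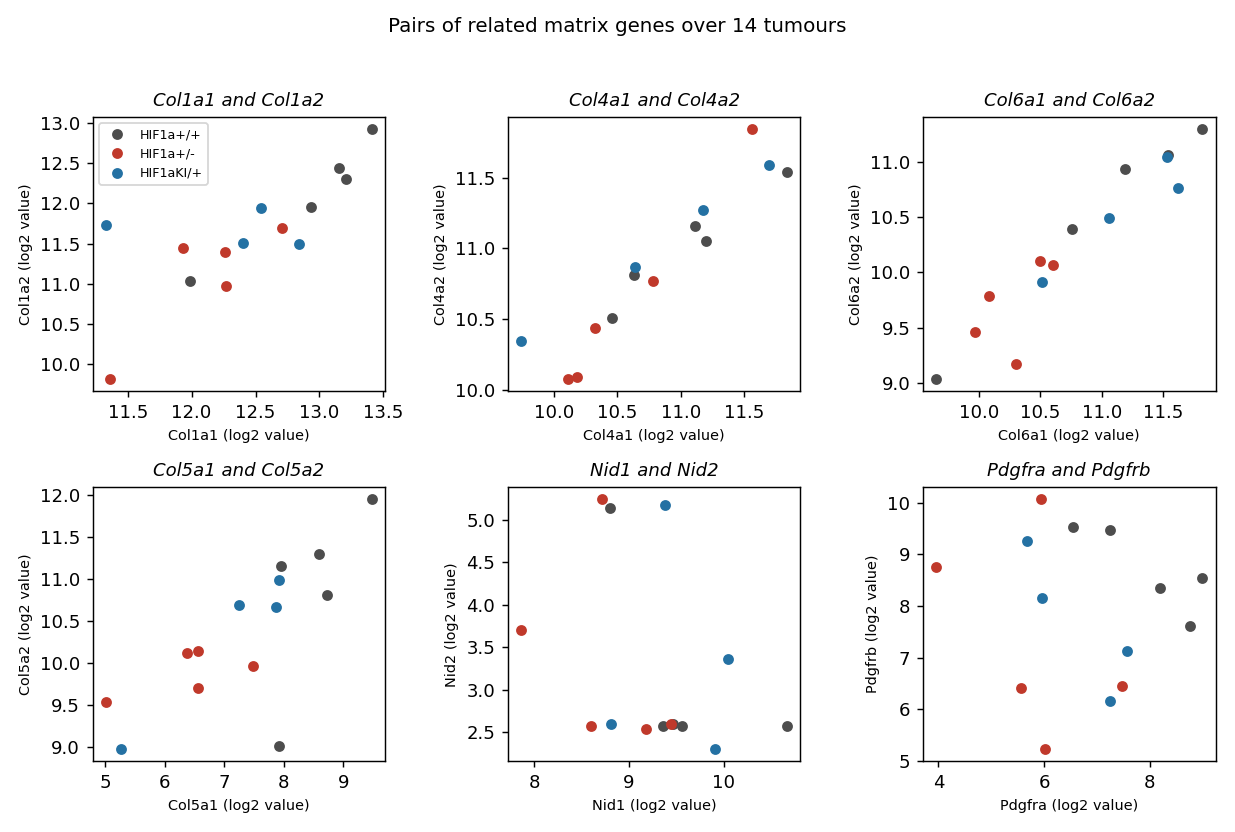
Log2 values of 6 pairs of matrix genes in 14 tumours, coloured by genotype, with the first gene on the x axis and the second on the y axis. Points of Col4a1 with Col4a2 and Col6a1 with Col6a2 lie close to a line (r = 0.94 and 0.95), while those of Nid1 with Nid2 and Pdgfra with Pdgfrb scatter (r = -0.36 and -0.10).

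Several of these genes are neighbours on the chromosome. In the RefSeq gene order, Col4a1 and Col4a2 lie next to each other on chromosome 8 on opposite strands, with starts 21 bases apart. Col6a1 and Col6a2 follow each other on chromosome 10 on the same strand, with starts 102640 bases apart. Dcn and Lum are also adjacent on chromosome 10, and Col3a1 and Col5a2 on chromosome 1.

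Other lists of genes that make, bind or cut the matrix had medians nearer to 0 than the matrix genes in HIF1a+/- against HIF1a+/+ tumours. Of 17 measured genes for collagen modification and crosslinking, 13 were lower in HIF1a+/- than in HIF1a+/+ tumours, with a median of -0.11, and 0 were called by limma. Lox, the main lysyl oxidase, gave -1.83 (SE 0.77, limma adjusted p = 0.6), whereas P3h4, a partner of the enzymes that modify collagen lysines, gave 4.47 (SE 1.12, limma adjusted p = 0.408). Of 22 genes of TGF-beta signalling and matrix induction, 9 were lower and 13 higher, with a median of 0.15. Eng, a TGF-beta co-receptor at background, gave -0.96 (SE 0.38), and Pdgfc, a ligand of Pdgfra, gave -0.92 (SE 0.42). Of 13 receptors for matrix, 9 were lower, with a median of -0.26, and Itga9, the integrin chain that binds Svep1, gave -2.14 (SE 0.70, limma adjusted p = 0.514). Of 15 matrix-degrading enzymes, 9 were lower, with a median of -0.50, and 10 had a mean below the boundary. Mmp11 averaged 2.33 in HIF1a+/- and 4.33 in HIF1a+/+ tumours, and Adamts5 averaged 2.30 and 4.01, all below the boundary. In HIF1aKI/+ against HIF1a+/+ tumours the medians of these 4 lists were -0.05, 0.13, 0.06 and -0.12, again with 0 genes called.

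Markers of other cells that the tissue could hold also differed between tumours. The mean of 6 measured adipocyte markers was 8.27, 9.54 and 8.60 in HIF1a+/+ tumours 2, 3 and 5, and between 5.31 and 6.75 in the other 11 tumours. Its range was 5.55 to 9.54 in HIF1a+/+, 5.31 to 6.66 in HIF1a+/- and 5.67 to 6.75 in HIF1aKI/+ tumours. Adipoq, which encodes adiponectin, was above the boundary in HIF1a+/+ tumour 3 alone, at 6.57. Within HIF1a+/+, tumour 3 had the highest adipocyte mean and the lowest mean of the fibril-forming collagens. Several other matrix genes were higher in the adipocyte-high HIF1a+/+ tumours 2, 3 and 5 than in tumours 1 and 4. Pdgfra read 8.99, 8.76 and 8.19 there, against 7.25 and 6.54. Dcn read 10.96, 9.90 and 9.90, against 7.81 and 7.33, and Ogn read 9.48, 7.67 and 8.23, against 7.32 and 6.11. The mean of the 4 small proteoglycans, Dcn and Ogn included, was 9.06, 7.54 and 8.34, against 7.45 and 6.64. Bgn, another of the 4, did not follow, at 11.59, 10.51 and 11.79, against 12.17 and 11.06. Lum was below the boundary in every tumour. Leaving out HIF1a+/+ tumours 2, 3 and 5 keeps only tumours 1 and 4 of that group. In that fit 34 of 40 matrix genes were lower in HIF1a+/- tumours, against 52.4% of all genes, with a median of -0.72. At an unadjusted limma p under 0.05 there were 11, against 8.01% of all genes in both directions. With the adipocyte mean as a covariate and all 14 tumours, 36 of 40 were lower, against 53.2% of all genes, with a median of -0.91. At that p there were 14, against 5.93% of all genes in both directions. The part of adipocytes in the differences was not tested by these fits.

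Mesothelial markers, of cells that line the chest cavity, were at background in most tumours. Their mean over 4 genes was 6.28 in HIF1a+/+ tumour 2, 3.57 in HIF1aKI/+ tumour 4 and 3.05 in HIF1a+/+ tumour 3, and lay between 2.07 and 2.21 elsewhere. Upk3b read 9.47 in the first and 6.28 in the second of these tumours, whereas Msln was below the boundary in all 14. Without HIF1a+/+ tumour 2 and HIF1aKI/+ tumour 4, the median of the matrix genes was -0.54 in HIF1a+/- and -0.11 in HIF1aKI/+ tumours against HIF1a+/+. Of the 40 genes, 35 and 21 were then lower, against 54.8% and 52.7% of all genes. With all tumours it was 35 and 25. At an unadjusted limma p under 0.05 there were 8 and 4 genes, against 8.17% and 3.19% of all genes. With all tumours there were 10 and 5.

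Of 16 macrophage markers, 13 were lower in HIF1a+/- than in HIF1a+/+ tumours, with a median of -0.51, and the list mean ranged from 7.47 to 8.38 in HIF1a+/-, 8.36 to 10.01 in HIF1a+/+ and 7.68 to 8.80 in HIF1aKI/+ tumours. Cd163, a scavenger receptor, was above the boundary in HIF1a+/+ tumours 2, 3 and 4 alone, at 8.76, 5.36 and 7.27. Of 13 endothelial markers 9 were lower, with a median of -0.26, and 7 had a mean below the boundary. Cdh5 and Kdr were below it in all 14 tumours, whereas others lay well above it. Plvap averaged 7.92 in HIF1a+/- and 8.88 in HIF1a+/+ tumours (difference -0.96, SE 0.39, limma adjusted p = 0.587). Pecam1 averaged 7.56 and 6.74, higher in HIF1a+/- tumours (difference 0.81, SE 0.53). The endothelial mean ranged from 3.75 to 5.03 in HIF1a+/-, 4.24 to 5.11 in HIF1a+/+ and 4.03 to 4.76 in HIF1aKI/+ tumours.

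By genotype, most smooth muscle and thymic epithelial markers were higher in HIF1a+/- and HIF1aKI/+ than in HIF1a+/+ tumours. Within a genotype the relation to the matrix genes was mixed. HIF1a+/+ tumour 1 and HIF1aKI/+ tumour 1 had the highest means of their groups for both lists and for the fibril-forming collagens. HIF1a+/+ tumour 3 and HIF1aKI/+ tumour 4 had the lowest. In HIF1a+/- the lists did not run together. There tumour 3 had the highest thymic epithelial mean (7.15) and the lowest collagen mean (9.17). HIF1a+/- tumour 5 had the highest smooth muscle mean (8.54), with a collagen mean of 9.94. Of 9 smooth muscle and pericyte markers, 7 were higher in HIF1a+/- and 8 in HIF1aKI/+ than in HIF1a+/+ tumours, with medians of 0.87 and 0.86. Notch3 was among the lower, with -2.03 (SE 0.70, limma adjusted p = 0.525) in HIF1a+/- tumours. Which cells of the tissue gave the Notch3 signal was not tested. Of 10 thymic epithelial markers, 9 were higher in HIF1a+/- and 10 in HIF1aKI/+ tumours, with medians of 1.14 and 1.55, and their mean ranged from 3.31 to 6.86 in HIF1a+/+, 5.42 to 7.15 in HIF1a+/- and 6.21 to 7.68 in HIF1aKI/+ tumours. The smooth muscle mean ranged from 5.99 to 7.37, 6.65 to 8.54 and 6.28 to 8.57 in the same order. Of 11 T cell markers 9 were higher in HIF1a+/- tumours, with a median of 0.15. With limma 0 genes of any of these lists were called. The part of these cells in the matrix differences was not tested.

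**Figure D5:**
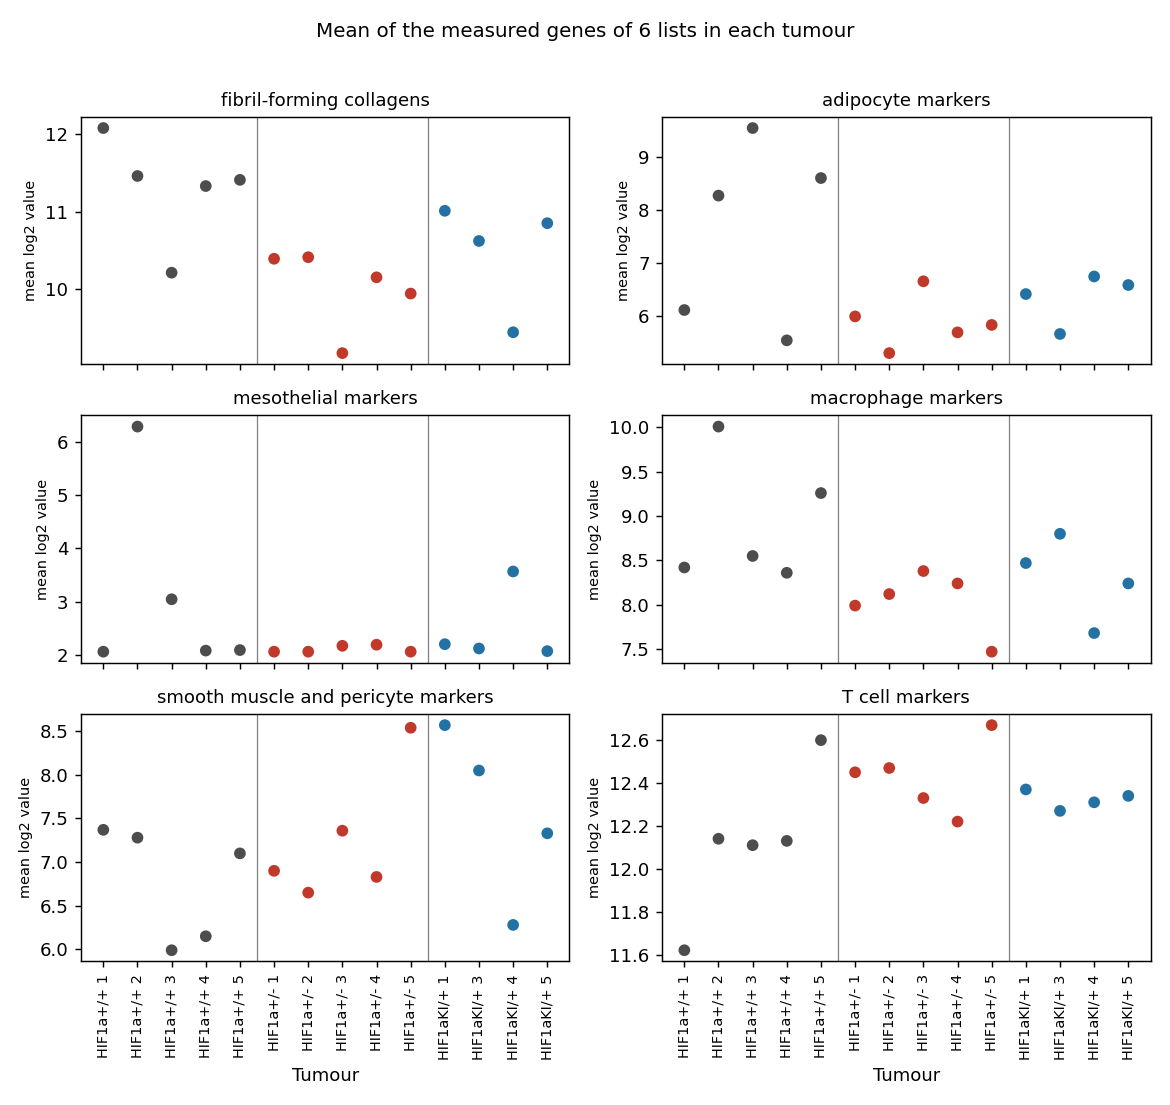
Mean log2 value of the measured genes of 6 lists in each of the 14 tumours, coloured by genotype. The fibril-forming collagens are high in 4 of 5 HIF1a+/+ tumours, adipocyte markers in HIF1a+/+ tumours 2, 3 and 5, and mesothelial markers in HIF1a+/+ tumour 2, while the T cell mean stays between 11.62 and 12.67.

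Further probe sets gave the same direction in most cases. Of 13 genes with more than 1 probe set at or above the boundary, all 13 had probe sets of the same sign in HIF1a+/- against HIF1a+/+, and 11 in HIF1aKI/+ against HIF1a+/+, with Col4a1 and Timp2 as the exceptions.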

How the data were processed

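Each tumour was measured on its own Affymetrix expression array. Per the labels' protocols, RNA of tissue kept in RNAlater was extracted with Trizol and RNeasy columns, and total RNA was amplified, converted to cDNA and labelled with biotin. The deposited table holds log2 values that the authors made with GCRMA and Partek, per the submitters' processing notes. Versions and a genome build are not given in the sources used here. GCRMA corrects background by probe sequence, quantile normalizes and summarises a probe set, which gathers weak probe sets in a low mode near 2. The log2 values were used as deposited, so array number limits the precision.

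Of 18264 probe sets, 16602 mapped to 1 gene, 603 to several and 1059 to none in the platform annotation. The first were reduced to 10254 genes by the highest mean. The boundary of 4.41 is the trough of the value density. limma 3.58.1 in R 4.3.3 fitted a mean per genotype to all 14 arrays (lmFit, contrasts.fit, eBayes), with Benjamini-Hochberg adjustment over 10254 genes and a threshold of 0.05. An unadjusted p is that of the same limma fit. A limma p sets a mean difference against the spread between tumours within genotypes, moderated over all genes. With 1 array per tumour, that spread includes variation of the measurement. Pairs used permutation tests with 100000 resamples (scipy 1.17.1, two-sided, adjusted over 10 pairs), and plots used matplotlib 3.10.9. The fit was tested on simulated data. Full statistics were given for the 5 genes of smallest p in each comparison and those of highest level in each role, and for other lists only genes among the 3 of smallest p. The genes and lists were chosen with earlier results of these data known. Same-numbered tumours did not deviate together (mean r -0.01 over 13 pairs, 0.00 over 52 other pairs), so replicate numbers were not used as pairs. Alternatives were a filter on level, quantile normalization, median centring, trended and robust moderation, array weights, only the compared groups, mean or single probe sets, a replicate block, adipocyte and Y-linked means as covariates, an adjusted p of 0.1 and leaving out each array. Sequences came from the RefSeq table of build GRCm38.p6.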

Additional observations from a re-analysis of the deposited data

Results flagged for a closer look

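In 16 of 120 sets of 1 gene in 1 genotype, a single tumour lay far from the others by Dixon's test, which chance gives in about 1 in 20 sets. In 7 of the 16 every value of the group was below the boundary of 4.41.

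Among genes with a mean above the boundary, the collagen chain Col5a2 was low in HIF1aKI/+ tumour 4 at 8.98, with the next at 10.67. The laminin chains Lamb1 and Lamc1 were both low in HIF1a+/- tumour 4, at 4.76 and 3.87, below the other 4 HIF1a+/- tumours. Fbln2 was low in HIF1a+/- tumour 2 at 2.57, and Mfap5 in HIF1a+/+ tumour 3 at 3.49. Of genes with a mean below the boundary, Col18a1 was high in HIF1a+/- tumour 5 at 5.69 and low in HIF1aKI/+ tumour 4 at 2.80. Nid2 was high in HIF1a+/+ tumour 3 at 5.14, and Eln in HIF1a+/+ tumour 2 at 5.68, each the only value of its group above the boundary.

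In groups wholly below the boundary, Col14a1 was high in HIF1aKI/+ tumour 1 at 3.02 and in HIF1a+/+ tumour 2 at 3.05. Mfap4 was high in HIF1aKI/+ tumour 3 at 2.94 and in HIF1a+/+ tumour 1 at 4.36. Lum was high in HIF1a+/- tumour 2 at 2.41, Mfap2 in HIF1a+/- tumour 2 at 2.56, and Svep1 in HIF1aKI/+ tumour 1 at 2.93.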

How the results depend on the processing

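No gene of the list was called in HIF1a+/- against HIF1a+/+ or in HIF1a+/- against HIF1aKI/+ under any alternative run. In HIF1aKI/+ against HIF1a+/+ the number called was 0 to 1 over the fits that each left out 1 tumour, and 0 otherwise. The counts at an unadjusted p under 0.05, the counts of lower genes and 2 leave-outs by marker lists were chosen after seeing the data. Leaving out 1 tumour at a time gave 8 to 20, 2 to 11 and 1 to 6 genes at that p in the 3 comparisons (HIF1a+/- against HIF1a+/+, HIF1aKI/+ against HIF1a+/+, HIF1a+/- against HIF1aKI/+), 34 to 36, 24 to 33 and 31 to 38 genes lower, and 5 to 7 of 10 pairs past the test. In HIF1aKI/+ against HIF1a+/+ the count of 5 was 3 with the filter on level, which tests fewer genes, and 3 with the Y-linked covariate. In HIF1a+/- against HIF1aKI/+ the count of 2 was 1 with that filter, 1 with the Y-linked covariate, 4 with the adipocyte covariate, and 6 without HIF1a+/+ tumour 2 and HIF1aKI/+ tumour 4. The replicate block gave 11, 4 and 4 genes and called 0, and the replicate numbers do not pair the tumours. Of 120 differences, 35 changed sign under some alternative, 33 of them smaller than their SE. Dcn became 0.23 in HIF1a+/- against HIF1a+/+ without HIF1a+/+ tumours 2, 3 and 5. Sparc became 0.02 in HIF1aKI/+ against HIF1a+/+ without HIF1a+/+ tumour 2 and HIF1aKI/+ tumour 4. The causes were not tested. For the 8 genes with a mean below 4.41, signal near background limits the size of any difference.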
